A study of Schizosaccharomyces pombe with 12 samples.

Results

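Small nucleolar RNAs (snoRNAs) were followed in wild-type fission yeast, Schizosaccharomyces pombe, moved from ordinary water to heavy water. The members were the 53 rows whose identifier begins with SPSNORNA, out of 7015 features listed for each sample. The cells carried no selection markers and grew in exponential phase in YES, a rich medium with yeast extract, glucose, adenine, uracil and leucine. The group S0 was in H2O and untreated, the group S5 was kept for 5 h in YES made with 100% D2O (deuterium oxide, heavy water), and the group S24 was kept for 24 h in the same D2O medium. Each group held 4 samples that the labels call independent, and since no H2O group was sampled at 5 h or 24 h in the data used here, D2O and time since transfer cannot be told apart.

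SnoRNAs are short RNAs of the nucleolus that guide the chemical modification and the folding of ribosomal RNA (rRNA) while ribosomes are made. Box C/D snoRNAs carry a C box near the 5′ end and a D box near the 3′ end, bind fibrillarin, and direct methylation of the ribose at the rRNA base that they pair with. Box H/ACA snoRNAs fold into hairpins, end just after an ACA triplet, bind the enzyme Cbf5 and direct the conversion of uridine to pseudouridine, and a few snoRNAs (U3, U14, snR30) are needed in budding yeast to cut the precursor of 18S rRNA. Some snoRNAs have their own promoter and others are cut out of the introns of host genes or out of longer RNAs that hold several of them.

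By sequence or by the product text of the annotation, 28 members were box C/D, 20 were box H/ACA and 5 (snoR02, snoR54b, snoU24, sno16 and snR88) were not classed. The listed length of the box C/D members was 73 to 112 bases with a median of 84, where classing by the boxes allowed at most 150 bases, and that of the box H/ACA members was 142 to 326 bases with a median of 170. The RefSeq annotation of assembly ASM294v3 gave the same length as the deposited tables for 52 of the 53 members, and snR90 was the exception. The members lay on chromosomes I (31 members), II (18) and III (4). The U3 genes snu3 and snu32 carry another identifier and are not among the 53.

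The sequences of the members whose changes are described most fully are given first, from RefSeq (ASM294v3), 5′ to 3′ and on the strand of the snoRNA. Capitals mark the C box, or its 5-base core, near the 5′ end and the D box CTGA near the 3′ end. The first of them, snoU14, is the rRNA-processing box C/D snoRNA.
snoU14: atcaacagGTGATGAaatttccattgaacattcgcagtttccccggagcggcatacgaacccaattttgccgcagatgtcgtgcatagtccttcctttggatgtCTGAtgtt

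The next set is the pairs that share a name and differ by a letter, shown because the 2 members of each pair had log2 fold changes of opposite sign at 5 h. SnoR54b is in lower case throughout because neither box was found at its place.
snoR69: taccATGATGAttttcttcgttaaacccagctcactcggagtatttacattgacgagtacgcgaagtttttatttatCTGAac
snoR69b: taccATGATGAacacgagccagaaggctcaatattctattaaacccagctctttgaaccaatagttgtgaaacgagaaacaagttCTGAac
snoR54: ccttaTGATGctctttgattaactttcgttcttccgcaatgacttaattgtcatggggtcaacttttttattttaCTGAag
snoR54b: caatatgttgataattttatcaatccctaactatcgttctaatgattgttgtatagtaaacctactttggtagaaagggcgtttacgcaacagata

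These are 3 intronic members that were higher at 5 h.
snoR38: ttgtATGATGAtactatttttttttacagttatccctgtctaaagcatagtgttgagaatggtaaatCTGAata
snoR58: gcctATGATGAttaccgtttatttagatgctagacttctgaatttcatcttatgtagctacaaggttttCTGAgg
snoU18: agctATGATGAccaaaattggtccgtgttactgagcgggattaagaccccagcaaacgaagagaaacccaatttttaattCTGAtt

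The last set is 2 members of 1 longer RNA, both lowest at 24 h.
snR41: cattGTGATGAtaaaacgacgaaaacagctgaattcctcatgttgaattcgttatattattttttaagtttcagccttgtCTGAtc
snR51b: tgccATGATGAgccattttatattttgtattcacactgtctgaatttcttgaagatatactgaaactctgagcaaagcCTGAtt

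The motifs searched were ATGATGA or GTGATGA as the full C box, TGATG or GATGA within the first 25 bases as its core, and CTGA within the last 15 bases as the D box, on the strand of the snoRNA only, with the core letters lying inside the full box. A full C box was present in 15 of the 28 box C/D members. The core and CTGA together were present at these places in 0.186% of 149235 windows of 84 bases along 1 strand of the genome. The letters ACA stood within the last 7 bases of 15 of the 20 box H/ACA members, and snR30 was classed by them because its product text names no box. Among the box C/D and unclassed members, snR41 held the longest run complementary to mature rRNA, the 17 bases TTTAAGTTTCAGCCTTG that pair with 18S rRNA and end 1 base before its D box. SnR51b held 15 bases, TTTGTATTCACACTG, complementary to 28S rRNA. SnoR69 and snoR69b shared the run ttaaacccagctc, of which TAAACCCAGCTC is complementary to 28S rRNA, although only 54.5% of the columns of their alignment were identical. SnoR54 held 14 bases complementary to 18S rRNA, TAACTTTCGTTCTT, whereas the longest complement in snoR54b was 9 bases. A complement of at least 12 bases was found in 2.76% of the same genome windows and one of at least 10 bases in 33.2%, so the 9 bases of snoR54b are no more than windows of the genome commonly hold.

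The counts do not tell apart features that overlap. The gene adh1 and the antisense feature that overlaps it had mean counts of 246376 and 246424.5 in H2O, so reads over both appear to have been counted for both, without regard to strand. Of the 53 members, 21 overlapped no other listed feature, 10 lay in an intron of a listed gene, 14 lay within a longer listed RNA on the same strand, and 8 overlapped a listed feature on the opposite strand only. The count of a member in the last 2 of these settings can hold reads of its partner. That of an intronic member can hold reads of unspliced host RNA. Of the 21 without overlap, sno16 lay 3 bases from the listed RNA SPBC3B8.03-antisense-1 and snR30 lay 17 bases from the gene pdi4. Whether reads were shared across these gaps was not tested. SnR91 held 96.9% of the counts of its host RNA SPNCRNA.901 in H2O, 96.7% at 5 h and 95.4% at 24 h, so the pair is nearly a single measurement. SnR98 held 79.3% of the counts of its host RNA SPNCRNA.814 in H2O, 83.2% at 5 h and 62.0% at 24 h. SnR97 held 2.67% of the counts of rad8-antisense-1 at 5 h and 3.10% in H2O. Its reads per kb in H2O were 0.887 times those of rad8-antisense-1, so its count did not stand above the coverage of that longer RNA. How much of the snR97 count came from rad8 or its antisense RNA was not tested.

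Total counts per library ranged from 26775612 to 27166349, and the members together had 18190 to 32270 counts per library. A count of 3, taken as the floor, was 0.104 to 0.126 CPM (counts scaled to library size, with TMM factors). This floor allows for counting error alone, because duplicate reads were not removed by any step known here. The rRNA rows held 2.85% of the counts of 24 h replicate 2, which stood apart from the other 24 h libraries at 0.119% to 0.177%. The main counts of calls at 24 h, by member class and for the related genes, are given with and without that library. The rRNA share also varied in H2O, at 0.433%, 0.182%, 0.723% and 0.0724% in replicates 1 to 4. H2O replicates 2 and 4 both exceeded replicates 1 and 3 for 8 of the 20 box H/ACA members (40.0%) and for 10 of the 25 box C/D members tested (40.0%) and 3 of the 4 unclassed ones tested (75.0%), against 20.4% of all 6683 features tested. The members affected include snoR54b, sno16, snR90, snR91, snR98, snR46 and snR94. The 10 box C/D members affected were snoZ7, snR41, snR51b, snoZ16, snoR69b, snoR38, snoR56, snoR39b, snoR39a and snr79. The genes ura4, leu1 and ade6, which laboratory strains often lack or carry mutated, and the tubulin gene nda2 had at least 2185 counts in every library. Whether short RNAs or rRNA were depleted in library making is not given in the sources used here.

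The members held a small and group-dependent share of the reads. The summed share was 0.0846% ± 0.0108 of all counts in H2O, 0.111% ± 0.00997 at 5 h and 0.0748% ± 0.00636 at 24 h (SD, n = 4 each). The 4 libraries at 5 h held 0.111%, 0.0968%, 0.119% and 0.117%, and those in H2O held 0.0705%, 0.0967%, 0.0857% and 0.0857%. On these raw totals the 5 h libraries were all above the H2O libraries, the closest pair being 0.0968% at 5 h and 0.0967% in H2O. The shares leave out the TMM factors used for CPM, which were 1.04 to 1.06 at 5 h and 0.879 to 0.944 in H2O. Applying the factors would lower the 5 h shares relative to H2O and would put that 5 h library below that H2O library. The 24 h libraries held 0.0815%, 0.0677%, 0.0785% and 0.0713%, which overlapped the H2O range. The box C/D members alone held 0.0105% ± 0.000188 at 5 h, against 0.00601% ± 0.00035 in H2O. At 24 h they held 0.0060% ± 0.000363, close to the H2O share on raw totals. The TMM factors at 24 h, 1.01 to 1.07, would lower the 24 h share relative to H2O.

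Levels per base differed over orders of magnitude between members. Per kilobase of listed length, the highest was sno12, a box H/ACA snoRNA, at 1192 ± 211 CPM per kb in H2O, 1191 ± 104 at 5 h and 754 ± 28.9 at 24 h (SD, n = 4 each). Next in H2O were sno16, not classed by its boxes, at 1016 ± 142 CPM per kb, snR30 at 446 ± 41.4, and snR95, box H/ACA, at 417 ± 56.5. Sno12 and sno16 did not differ in H2O beyond their spread, nor did snR30 and snR95. The median member stood at 17.4 CPM per kb in H2O, 26.2 at 5 h and 11.1 at 24 h. The 5 members with the most counts (snR30, sno12, sno16, snR95 and snR98) held 75.7% of the member counts in H2O, 76.1% at 5 h and 76.5% at 24 h, so the summed share above is mainly a statement about these 5.

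**Figure D1:**
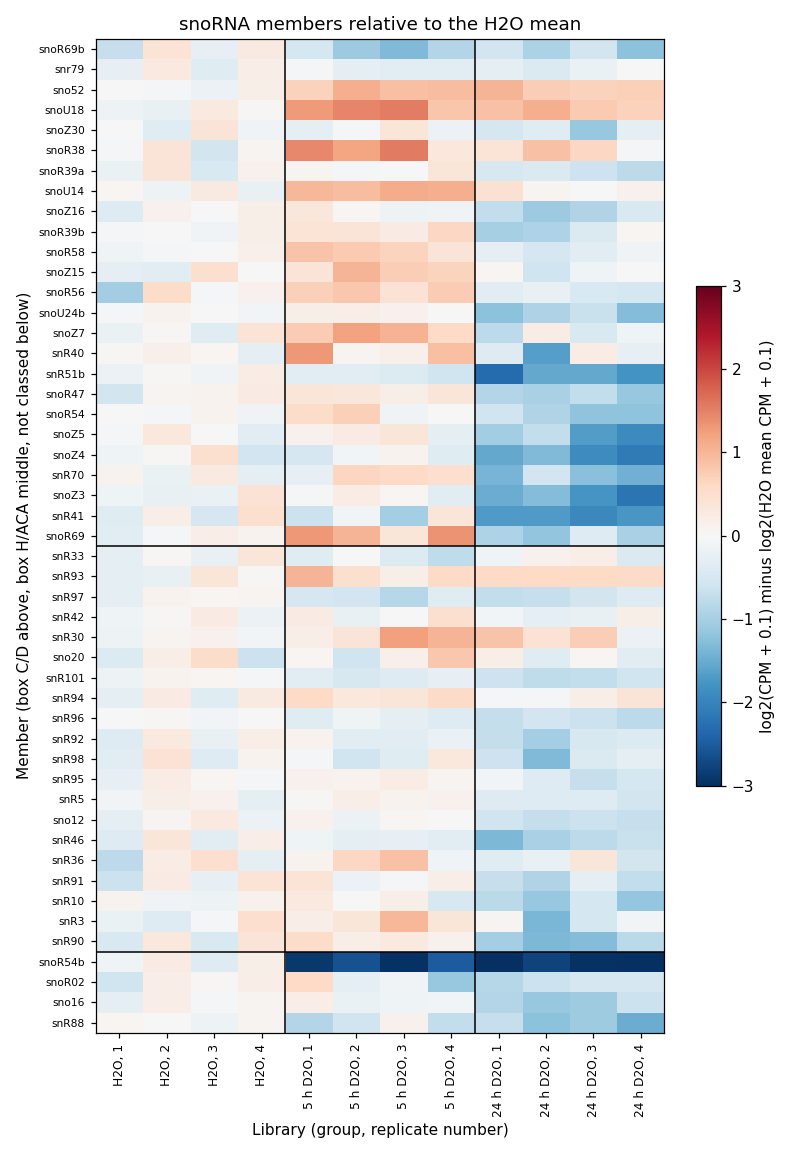
Level of each of the 49 tested members in every library, as the difference of log2(CPM + 0.1) from the H2O mean, with rows grouped by box class and columns by group. SnoR54b is deep blue in all 8 D2O libraries, snoU18 and sno52 are red in all 8, and most box C/D rows turn from red or white at 5 h to blue at 24 h.

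Of the 53 members, 49 passed the filter on low counts and 4 were not tested. SnoZ8, snoU24, snoR68 and snr62, the untested ones, were also the members with 0 counts in some library. SnoZ8, at 0.282, 0.490, 0.600 and 0.282 CPM at 5 h and 0.165, 0.118, 0.168 and 0.236 CPM in H2O, was higher in all 4 libraries at 5 h but rests on few reads. SnoU24, the shorter namesake of snoU24b, was at or below the floor in H2O and in all 24 h libraries, as were snr62 in H2O and at 24 h and snoR68 at 24 h. No fold is given for these 4.

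The first comparison was 5 h in D2O against H2O. Among the members called higher were snoU14, snR30 and the box C/D guides snoU18, snoR38, snoR69, snoR58, snoZ7 and sno52. Of the 49 members tested, 12 were called higher and 6 lower (36.7% in all), using edgeR's quasi-likelihood test with a Benjamini-Hochberg adjusted p under 0.05 over all features. Over all 6683 features 39.1% were called higher and 37.3% lower, 76.4% in all. Whether the members' shares differ from these was not tested, and the median member averaged 41.5 counts in H2O. The median log2 fold change of the members was 0.13, against 0.01 over all features tested. That median was 0.0162 among members with a mean of at least 50 counts, of which 6 were called higher and 5 lower, and 0.0845 without H2O replicate 1. Of the 25 box C/D members tested 9 were called higher and 2 lower, with a median log2 fold change of 0.37, and of the 20 box H/ACA members 3 were called higher and 3 lower, with a median of 0.12. With scaling by library size alone, which moved the median of all features to 0.21, 21 members were called higher and 3 lower.

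SnoU14, which pairs with 18S rRNA, had 43.3, 41.2, 47.5 and 46.2 CPM at 5 h, against 22.6, 19.5, 26.3 and 18.7 CPM in H2O. Every 5 h library was well above every H2O library. Its log2 fold change was 1.03 (SE 0.11, edgeR adjusted p = 7.58e-07). SnR30, the box H/ACA snoRNA needed in budding yeast for 18S rRNA, had 166, 189.6, 340.3 and 297 CPM at 5 h, against 131, 155, 159 and 137 CPM in H2O. All 4 libraries at 5 h were higher, but 2 of them by a wide margin and replicate 1 by little. Its log2 fold change was 0.77 (SE 0.23, edgeR adjusted p = 0.00657).

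Several less abundant box C/D members were also called higher at 5 h. These and the other members below 3 in mean log2 CPM were singled out after their values were seen. SnoU18, whose namesake guides methylation of the large subunit rRNA in budding yeast, had 2.29, 2.63, 2.75 and 1.65 CPM at 5 h, against 0.783, 0.746, 1.09 and 0.906 CPM in H2O. The groups did not overlap, and the log2 fold change was 1.40 (SE 0.19, edgeR adjusted p = 9.99e-06). SnoR38 had 2.51, 2.07, 2.72 and 1.09 CPM at 5 h, against 0.824, 1.14, 0.547 and 0.906 CPM in H2O. Replicate 4 at 5 h overlapped the H2O range, and the log2 fold change was 1.28 (SE 0.29, edgeR adjusted p = 0.00114). SnoR58 had 6.18, 5.92, 5.47 and 4.51 CPM at 5 h, against 3.09, 3.30, 3.41 and 3.78 CPM in H2O, a log2 fold change of 0.70 with an SE of 0.12 (edgeR adjusted p = 1.05e-04). The 2 groups of libraries for snoR58 were apart, with the lowest 5 h value above the highest H2O value. Sno52 had 8.08, 10.7, 9.39 and 9.61 CPM at 5 h, against 5.07, 4.79, 4.42 and 5.67 CPM in H2O, a log2 fold change of 0.92 with an SE of 0.12 (edgeR adjusted p = 4.38e-06). It lies on the strand opposite to taf9, a transcription factor gene whose log2 fold change was 0.20. Sno52 held 11.8% of the taf9 counts at 5 h and 7.12% in H2O. Its reads per kb in H2O were 1.11 times those of taf9, so its count there stood little above the coverage of that gene. How much of the sno52 count came from taf9 was not tested. The other called members with rises were snoZ7, snoR69, snoZ15, snoR56, snR93 and snR94, with log2 fold changes of 0.96, 1.12, 0.91, 0.72, 0.62 and 0.47.

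Members called lower at 5 h were few. SnoR54b fell most, to 0.671, 0.841, 0.635 and 0.915 CPM at 5 h, against 5.11, 6.68, 4.29 and 6.38 CPM in H2O. The groups were far apart, and the log2 fold change was -2.87 (SE 0.19, edgeR adjusted p = 5.23e-09). Its nearest listed neighbour, 432 bases away, was fio1, a component of high-affinity iron uptake, and fio1 had a log2 fold change of 0.04 at 5 h (SE 0.07, edgeR adjusted p = 0.663). SnoR69b fell by 1.09 on the log2 scale (SE 0.29, edgeR adjusted p = 0.0037), with 0.565, 0.350, 0.282 and 0.422 CPM at 5 h and 0.494, 1.18, 0.716 and 1.06 CPM in H2O, which overlap. Its partner snoR69 had 2.89, 2.38, 1.48 and 3.03 CPM at 5 h, against 0.865, 1.10, 1.31 and 1.22 CPM in H2O, without overlap. The 2 members of this pair, each with a C box and a D box and a shared rRNA complement, were thus called in opposite directions at 5 h.

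The box H/ACA members snR101 and snR96 fell by a small amount. SnR101 had 24.0, 21.9, 23.1 and 25.7 CPM at 5 h, against 27.4, 32.6, 31.7 and 29.7 CPM in H2O, a log2 fold change of -0.36 with an SE of 0.07 (edgeR adjusted p = 2.59e-04). SnR96 had 8.44, 9.95, 8.93 and 8.34 CPM at 5 h, against 11.04, 11.16, 10.4 and 10.99 CPM in H2O, a log2 fold change of -0.29 with an SE of 0.08 (edgeR adjusted p = 0.00373). Neither pair of groups overlapped, but with library size scaling the adjusted p was 0.0724 for snR101 and 0.353 for snR96. SnR96 lies opposite tim17, whose log2 fold change was -0.32, and it held 13.2% of the tim17 counts at 5 h and 12.9% in H2O. Its reads per kb in H2O were 0.858 times those of tim17, so its count did not stand above the coverage of that gene. How much of the snR96 count came from tim17 was not tested. SnR51b and snR97 were also called lower, at -0.42 and -0.58. Sno12 and sno16 were not called, with log2 fold changes of 0.00 (SE 0.10) and -0.04 (SE 0.12), and neither were snR95, at 0.13, and snR98, at -0.13.

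**Figure D2:**
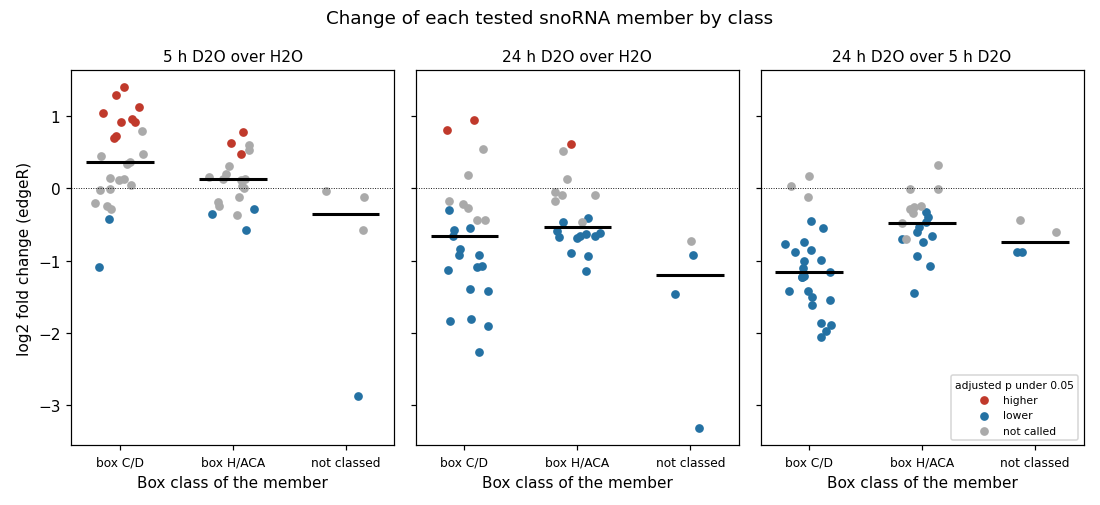
Log2 fold change (edgeR) of each tested member at 5 h and at 24 h against H2O and at 24 h against 5 h, by box class, with red for members called higher, blue for members called lower, grey for members not called and a black bar at the median of the class. At 5 h the box C/D median is 0.37 and at 24 h against 5 h it is -1.16.

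The next comparison was 24 h in D2O against H2O. Most members were lower. Of the 49 tested, 3 were called higher (snoU18, sno52 and snR93) and 31 lower, against 41.8% called higher and 39.4% called lower over all features, 81.2% in all. Without 24 h replicate 2 the counts were 3 higher and 28 lower. The median log2 fold change of the members was -0.63, against 0.01 over all features. Among the box C/D members 2 were called higher and 16 lower, with a median of -0.65, and among the box H/ACA members 1 was called higher and 12 lower, with a median of -0.53. Without 24 h replicate 2 these were 2 higher and 14 lower for box C/D and 1 higher and 11 lower for box H/ACA. The libraries did not overlap for 23 members that were lower at 24 h, against 37.1% of all features tested, and for 3 that were higher, against 39.2%. Scaling by library size alone moved the median of all features to 0.20 and gave 6 members called higher and 23 lower.

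SnoR54b was again the furthest from H2O, with 0.547, 0.730, 0.628 and 0.347 CPM at 24 h, against 5.11, 6.68, 4.29 and 6.38 CPM in H2O. All 24 h libraries lay far below all H2O libraries, and the log2 fold change was -3.31 (SE 0.20, edgeR adjusted p = 1.05e-09). At this time its neighbour fio1 was at 40.7, 34.1, 36.8 and 35.8 CPM, against 485, 549.8, 582 and 494 CPM in H2O, with a log2 fold change of -3.84, whereas it was not called at 5 h. SnoR54b shares no listed feature, and its level was low at both times in D2O. The fio1 libraries at 5 h, at 505 to 583 CPM, overlapped those in H2O. Whether the levels of snoR54b and fio1 are linked was not tested.

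Of the 12 tested members that lie within a longer listed RNA on the same strand, 10 were called lower at 24 h and 0 higher, beside 39.4% and 41.8% of all features, and 9 lower and 0 higher without 24 h replicate 2. Of the 10, 6 lie in 2 host RNAs, so they are not separate measurements of 10 transcripts. SnR51b had 0.949, 1.68, 1.68 and 1.39 CPM at 24 h, against 4.45, 5.19, 4.72 and 5.95 CPM in H2O, a log2 fold change of -1.83 with an SE of 0.16 (edgeR adjusted p = 5.16e-08). SnR41, from the same RNA SPNCRNA.723, had 0.182, 0.182, 0.140 and 0.174 CPM at 24 h, against 0.618, 0.943, 0.547 and 1.18 CPM in H2O, a log2 fold change of -2.26 with an SE of 0.41 (edgeR adjusted p = 1.45e-04). Both were clear of the H2O range, though snR41 was within reach of the floor. With snR70, at -1.39, the 3 members held 54.1% of the counts of SPNCRNA.723 at 24 h and 59.9% in H2O, and that RNA had a log2 fold change of -1.68. Of the 5 members in psf3-antisense-1, which runs opposite the replication gene psf3, snoZ3, snoZ4 and snoZ5 had log2 fold changes of -1.90, -1.81 and -1.41 and snoZ7 was at -0.27 and not called, while that RNA itself was at -0.78. The 5 together held 11.2% of the counts of psf3-antisense-1 at 24 h and 15.7% in H2O. Per kb, their reads in H2O were 0.0957 (snoZ8) to 1.28 (snoZ4) times those of psf3-antisense-1. In SPNCRNA.723 the same ratio was 0.766 for snR41, 0.468 for snR70 and 4.81 for snR51b. How much of these members' counts came from the longer RNA was not tested.

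Of the 5 members with the most counts, sno12, sno16, snR95 and snR98 were called lower and snR30 was not called. Sno16 had 104, 86.3, 89.98 and 122 CPM at 24 h, against 156, 218, 184.5 and 201 CPM in H2O, a log2 fold change of -0.92 with an SE of 0.12 (edgeR adjusted p = 5.01e-06). Sno12 had 150.1, 138, 145 and 140.0 CPM at 24 h, against 188, 239.8, 277 and 200.5 CPM in H2O, a log2 fold change of -0.66 with an SE of 0.10 (edgeR adjusted p = 2.49e-05). All libraries of both members at 24 h were below those in H2O. SnR46 fell to 4.16, 5.44, 6.25 and 6.74 CPM at 24 h, against 8.24, 13.9, 8.71 and 12.4 CPM in H2O, a log2 fold change of -0.94 with an SE of 0.17 (edgeR adjusted p = 1.48e-04), and the H2O values were the ones that split between replicates 2 and 4 and the others. SnR96 and snR101 both had log2 fold changes of -0.68, with edgeR adjusted p of 1.49e-06 and 3.44e-07. Tim17, which overlaps snR96 on the opposite strand, was at -0.74. SnR95 was at -0.41 (SE 0.11, edgeR adjusted p = 0.00395) and snR98 at -0.61 (SE 0.24, edgeR adjusted p = 0.0271), both with overlapping libraries. The call of snR98 was lost without 24 h replicate 2 (-0.44), without H2O replicate 2 (-0.43) or without H2O replicate 4 (-0.58). The host RNA of snR98, SPNCRNA.814, was not called at 24 h against H2O, at -0.26 (edgeR adjusted p = 0.166). SnoU14 was not called, at 30.1, 22.9, 21.8 and 23.7 CPM at 24 h against 22.6, 19.5, 26.3 and 18.7 CPM in H2O, a log2 fold change of 0.18 with an SE of 0.11 (edgeR adjusted p = 0.156) that was called, at 0.28, without H2O replicate 3. SnR30 had 262, 195, 244 and 128 CPM at 24 h, a log2 fold change of 0.51 against H2O that missed the threshold (SE 0.23, edgeR adjusted p = 0.0505), and replicate 4 was below the H2O range. Without that library the value was 0.68 and passed the threshold (edgeR adjusted p = 0.00657).

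SnoU18, sno52 and snR93 stayed above H2O at 24 h. SnoU18 had 1.72, 2.01, 1.61 and 1.49 CPM at 24 h, against 0.783, 0.746, 1.09 and 0.906 CPM in H2O (log2 fold change 0.95, SE 0.20, edgeR adjusted p = 5.27e-04). Sno52 had 10.3, 8.39, 8.06 and 8.20 CPM at 24 h, against 5.07, 4.79, 4.42 and 5.67 CPM in H2O (log2 fold change 0.80, SE 0.12, edgeR adjusted p = 1.45e-05). Taf9, on the strand opposite to sno52, was at 0.14. SnR93, a box H/ACA member, had 3.83, 3.83, 3.80 and 3.75 CPM at 24 h, against 2.06, 2.12, 3.20 and 2.56 CPM in H2O (log2 fold change 0.62, SE 0.18, edgeR adjusted p = 0.00556). None of the 3 overlapped with H2O.

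**Figure D3:**
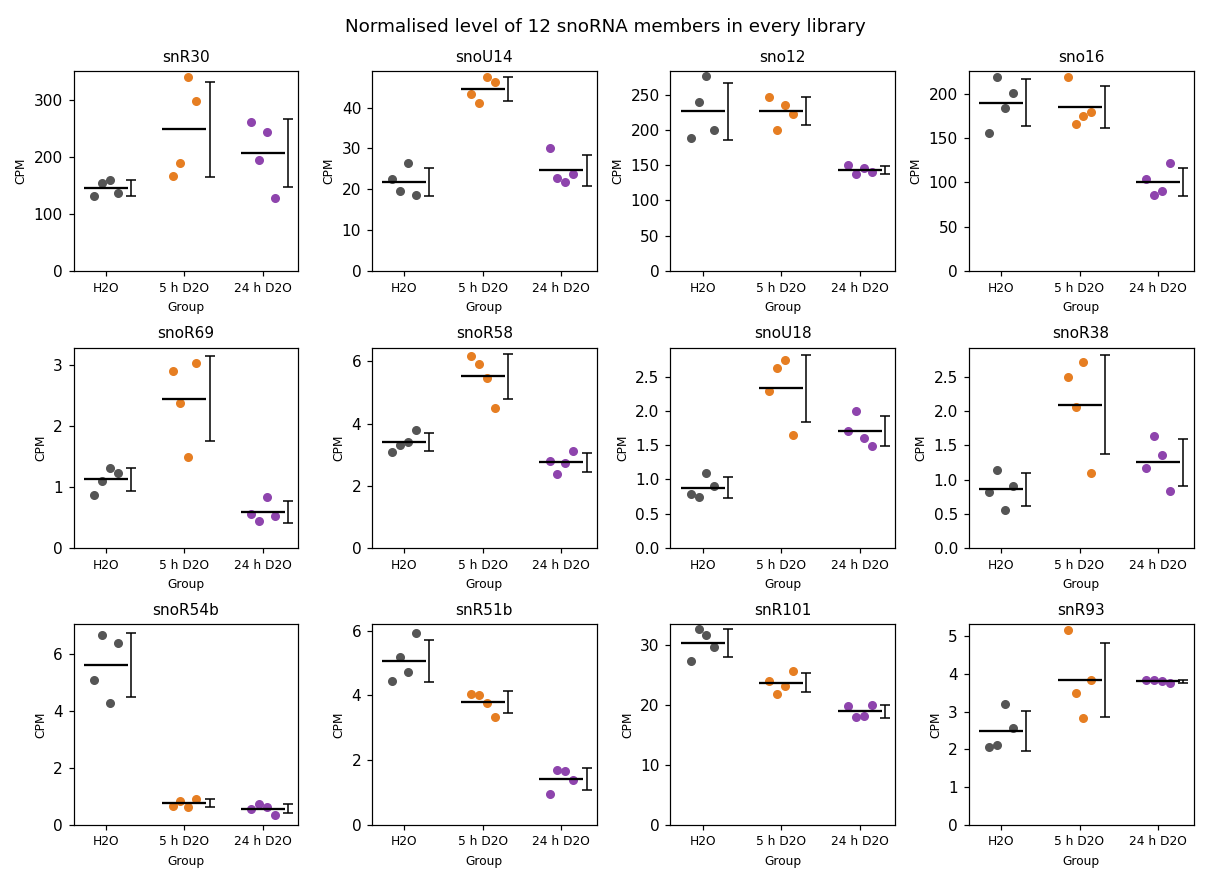
Normalised level (CPM) of 12 members in every library of the groups H2O, 5 h and 24 h in D2O, with dots for libraries, a bar for the mean and an error bar for the SD (n = 4). SnoU14, snoR69 and snoR58 are highest at 5 h, snoR54b is low in both D2O groups, and snR101 steps down from group to group.

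The last comparison was 24 h against 5 h in D2O. Of the 49 members tested, 0 were called higher and 35 lower by edgeR, and 0 were higher also at an unadjusted p under 0.05 and by DESeq2. Over all features 33.6% were called higher and 34.6% lower, 68.3% in all. Without 24 h replicate 2 the counts were 0 higher and 33 lower. The median log2 fold change was -0.75, against -0.01 over all features. Of the 25 box C/D members tested 22 were called lower, with a median of -1.16, and of the 20 box H/ACA members 11 were called lower, with a median of -0.48. Without 24 h replicate 2 these counts were 22 and 10. The libraries did not overlap, with 24 h below 5 h, for 30 members, against 30.9% of all features, and with 24 h above 5 h for 0 members, against 30.4%.

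SnoR69, snoU14 and sno16 show the size of these differences. SnoR69 had 0.547, 0.438, 0.838 and 0.521 CPM at 24 h, against 2.89, 2.38, 1.48 and 3.03 CPM at 5 h, a log2 fold change of -2.05 with an SE of 0.25 (edgeR adjusted p = 6e-06). SnoU14 had 30.1, 22.9, 21.8 and 23.7 CPM at 24 h, against 43.3, 41.2, 47.5 and 46.2 CPM at 5 h, a log2 fold change of -0.85 with an SE of 0.11 (edgeR adjusted p = 8e-06). Sno16 had a log2 fold change of -0.88 with an SE of 0.12 (edgeR adjusted p = 1.7e-05). For these 3 members every 24 h library was below every 5 h library. SnR91 and snR46 fell by 0.75 and 0.70, sno12 by 0.66, snR95 by 0.54, snR96 by 0.40 and snR101 by 0.32 on the log2 scale, all called and none overlapping. Tim17, opposite snR96, had a log2 fold change of -0.42. SnR30 was not called, at -0.26 (SE 0.23), and snR98 was not called, at -0.48 (SE 0.24, edgeR adjusted p = 0.0812), although it was without 5 h replicate 2 (-0.61) or 24 h replicate 4 (-0.62). SnoR54b was not called either, at -0.44 (SE 0.28). The 5 h libraries enter both this comparison and the first.

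Intronic members and the genes that hold them were set side by side. Of the 10 members in an intron of a listed gene, 9 were tested, and for 9 of the 10 genes the listed length was nearer the summed exons than the whole span. At 5 h all 9 tested intronic members had a log2 fold change above 0 (4 called higher, 0 lower, beside 39.1% and 37.3% of all features), while 7 of the 9 host genes were below 0. The member's log2 fold change exceeded the host's in 9 of 9 pairs, by 0.19 to 2.11 and by 0.95 at the median, a count made after the values were seen. SnoR38 was at 1.28 and its host SPAC29A4.02c, which encodes a translation elongation factor subunit, was at -0.83. SnoR58 was at 0.70 and its host ade4, a gene of purine synthesis, was at -0.80. SnoU18 and its host ero11, which encodes an oxidoreductase of the endoplasmic reticulum, were both higher, at 1.40 and 0.85.

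At 24 h against H2O the pairs no longer lay on 1 side. The member exceeded its host in 6 of 9 pairs, and the median difference was 0.24. SnoU24b and its host cpc2, a ribosome-associated protein gene, were at -1.09 and -1.02, and snoR54 and its host gua1, for IMP dehydrogenase, were at -1.14 and -0.29. SnoR39a and snoR39b lie in rlp7 and rpl701, genes for ribosome assembly and a ribosomal protein, and were at -0.65 and -0.54 while these hosts were at -1.23 and -1.05. The call of snoR39a was lost without H2O replicate 2 (-0.48), and that of snoR39b in 5 of the 8 fits that leave out 1 library, with values of -0.57 to -0.40. Between 24 h and 5 h the member was below its host in all 9 pairs. Reads of unspliced host RNA over the intron would enter the member's count, and their part in these differences was not tested.

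**Figure D4:**
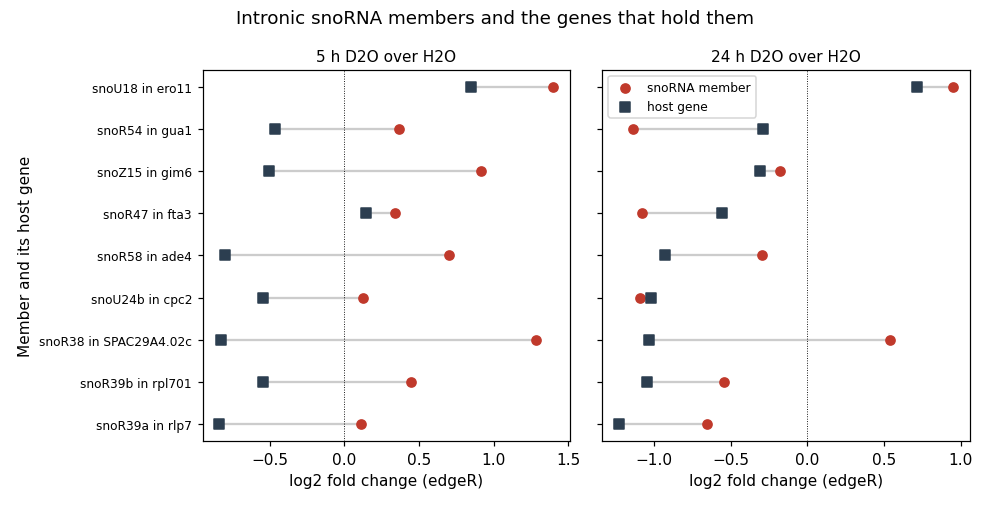
Log2 fold change (edgeR) of the 9 tested intronic members, red circles, and of the genes that hold them, dark squares, at 5 h and at 24 h in D2O against H2O. At 5 h every circle lies right of its square, by 0.19 to 2.11, and at 24 h this holds for 6 of the 9 pairs.

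Most genes for the proteins that bind, assemble and process snoRNAs were called lower in D2O. Of 50 symbols listed, 47 distinct genes were found and tested. At 5 h 3 of the 47 genes rose and 39 fell, beside 39.1% and 37.3% of all features, and their median log2 fold change was -0.53. At 24 h against H2O 3 rose and 41 fell, beside 41.8% and 39.4% of all features, and the median was -0.62. At 24 h against 5 h 7 rose and 24 fell, beside 33.6% and 34.6%, and the median was -0.14. Without 24 h replicate 2 these counts were 3 and 40 against H2O, and 7 and 22 against 5 h. All 4 core proteins of box C/D particles and all 4 of box H/ACA particles were called lower at both times.

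Fib1, the fibrillarin methyltransferase, stood at -0.84 on the log2 scale at 5 h (SE 0.12, edgeR adjusted p = 1.21e-05), and its 24 h value against H2O was -1.30. Cbf5, the pseudouridine synthase, was at -0.58 at 5 h (SE 0.06, edgeR adjusted p = 6.85e-07) and -0.98 at 24 h, and its partner gar1 was at -1.08 and -1.74. Nop56, nop58 and snu13 were at -0.67, -0.66 and -0.51 at 5 h. The U3-binding and processome genes (rrp9, imp3, imp4 and 4 others) were all called lower at both times. Among the RNA processing genes, mtr4, a helicase that feeds the nuclear exosome, was at -1.20 and the helicase gene sen1 at -1.25 at 5 h. The exceptions at 5 h were nab3, which encodes an RNA-binding protein, at 1.42, SPBC16C6.03c at 0.64 and lsm2 at 0.23. These are levels of messenger RNA, while the box C/D members as a class had a median of 0.37 for 5 h and of -0.65 for 24 h, both against H2O.

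The U3 genes, set beside the members, were at 366 CPM (snu3) and 419 CPM (snu32) on average at 5 h, against 313 and 334 CPM in H2O. The log2 fold changes at 5 h were 0.23 for snu3 (SE 0.13, edgeR adjusted p = 0.124) and 0.33 for snu32 (SE 0.09, edgeR adjusted p = 0.00333). At 24 h against H2O they were -0.39 (SE 0.13, edgeR adjusted p = 0.0117) and -0.44 (SE 0.09, edgeR adjusted p = 2.74e-04). Of the other small nuclear RNA genes, 4 of 6 were tested. At 5 h 2 of them were called higher, and at 24 h against H2O 1, snu6, was called lower (-0.76). In RNA from whole cultures, less RNA per cell and fewer cells that hold an RNA cannot be told apart.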

How the data were processed

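RNA of 12 samples was measured by sequencing, with 4 samples per group. The members and the lists were chosen with earlier results of these data known, and the groups and replicate numbers come from the sample titles. Per the file headers, the deposited tables give, for each of 7015 features, a read count that is a whole number and not normalised, a feature length in bases and an RPKM value, which was not tested. The submitters' processing notes name BWA 0.7.12, and the counting program, genome build, annotation and strandedness are not given in the sources used here. Counts were tested as deposited.

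All 12 libraries were fitted together, with no covariate besides the group, in edgeR 4.0.16 (with limma 3.58.1, R 4.3.3). Features were kept with filterByExpr at a minimum of 10 counts, which left 6683 and removed 332. TMM scaling, the quasi-likelihood F test and Benjamini-Hochberg adjustment over all features followed, and a feature was called at an adjusted p under 0.05. The SE was obtained from the log2 fold change and F as their ratio, |log2 fold change| over the root of F, and CPM uses the TMM-scaled library size. The script was tested on simulated counts. Members named with values are the largest called changes without overlap at a mean log2 CPM of at least 3, U14, snR30, the 5 with the highest mean CPM and the untested ones, plus others stated to be chosen after their values were seen. A member was classed from its product text, else as box C/D where both boxes were found in at most 150 bases, else as box H/ACA where it was longer than 120 bases with ACA in its last 7. Features were matched by identifier to RefSeq ASM294v3 (6845 of 7015). The files name no build, so no coordinates are given. The alternatives were other scaling, low-count filters, DESeq2 1.42.0, a replicate block, removal of rRNA rows, a model of only the groups compared, only members without overlap, and leaving out each replicate. The labels call the samples independent without naming separate cultures, so p-values measure only the spread between these samples.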

Additional observations from a re-analysis of the deposited data

Results flagged for a closer look

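In groups of 4 libraries, a library was picked out where its gap to the nearest other was a larger part of the group's range than Dixon's critical value for 4 samples allows. This happened in 8 of 150 groups checked, and chance gives about 1 in 20. SnoZ3 reached 1.81 CPM in H2O replicate 4, the highest of that group, and snR97 was lowest at 5.11 CPM in H2O replicate 1. At 5 h, snoR47 was lowest at 1.02 CPM in replicate 3, snR3 highest at 0.988 CPM in replicate 3, and snr79 highest at 6.81 CPM in replicate 1. At 24 h, sno52 was highest at 10.3 CPM in replicate 1, snR70 highest at 0.401 CPM in replicate 2, and snR5 lowest at 0.764 CPM in replicate 4.

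SnoR58 and snoR69 were called higher at 5 h and lower at 24 h, each against H2O. Tested directly at 24 h against 5 h by edgeR over 4 libraries each, snoR69 had a log2 fold change of -2.05, lower in 4 of 4 libraries, and snoR58 of -0.998, also lower in 4 of 4. The call of snoR58 at 24 h against H2O was lost when any of 6 of the 8 libraries was left out, and snoR69 kept its call in each of the 8.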

How the results depend on the processing

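With scaling by library size alone, 21 members were called higher and 3 lower at 5 h against H2O, with a median log2 fold change of 0.33, and 6 higher at 24 h against H2O, with a median of -0.45. Under this scaling, which moved the median of all features to 0.21 at 5 h and 0.20 at 24 h, the pathway list gave 5 genes higher at each time against H2O. How many of that list were lower is not given here. The shares called over all features are not given for this scaling, for the filter on 50 counts or for fits that leave out 1 library. Counts of calls under these settings stand without them. Requiring a mean of at least 50 counts gave 6 members higher and 5 lower with a median of 0.0162 at 5 h, 15 lower at 24 h against H2O, and 13 lower with a median of -0.46 at 24 h against 5 h; fewer members are tested under it. Of the members that overlap no other listed feature, 20 were tested in the main fit. At 5 h 6 of them were higher and 3 lower, beside 39.1% and 37.3% of all features, with a median of 0.0876. At 24 h against H2O 1 was higher and 12 lower, beside 41.8% and 39.4%. At 24 h against 5 h 0 were higher and 13 lower, beside 33.6% and 34.6%, with a median of -0.63. Their share of all counts was 0.0711% in H2O, 0.0946% at 5 h and 0.0643% at 24 h. With only protein-coding features as denominator, the members' share was 0.125% at 5 h and 0.0843% at 24 h. Leaving out 1 library gave a median at 5 h against H2O of 0.0845 (without H2O replicate 1) to 0.21 (without H2O replicate 2) and a median at 24 h against 5 h of -0.86 (without 5 h replicate 4) to -0.70 (without 5 h replicate 3).

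Of the 24 members whose 5 h change against H2O was recomputed under the alternatives, the sign turned for 4, none of them called. Scaling by library size moves all features alike, with a median of 0.21. For sno12 the log2 fold change was 0.20 by library size, 0.0105 with TMM from protein-coding features, 0.0008 at a mean of at least 50 counts, 0.0052 with the replicate block, 0.0041 with only the groups compared, and -0.0797 to 0.11 when 1 library was left out. Sno16 was at 0.16 and snR98 at 0.0653 by library size, and leaving out 1 library gave -0.13 to 0.034 for sno16, -0.31 to 0.0585 for snR98 and -0.0457 to 0.28 for snR91. For the other settings the cause was not tested. SnR30 at 24 h against H2O, at an adjusted p of 0.0505, crossed the threshold under 6 alternatives that keep all libraries, among them only the groups compared, at 0.018.

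The replicate numbers were not used to pair the samples in the main fit. Same-numbered correlations of deviations ran from -0.273 to 0.661, the highest being replicate 2 at 24 h against 5 h. Of 8 samples in each comparison, 1 (5 h against H2O), 3 (24 h against H2O) and 4 (24 h against 5 h) correlated best with their own number. Whether some same-numbered samples were handled together was not tested. With the replicate block, 13 members were called higher and 6 lower at 5 h, 4 and 30 at 24 h against H2O, and 0 and 36 at 24 h against 5 h. The shares called over all features with this block are not given here either, so these counts stand without them. Members at a few counts per library rest on counting error, so small folds there were not detectable at this depth.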
